A study of Mus musculus with 114 samples.

Results

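The autophagy genes described here are 10 genes, Map1lc3a, Map1lc3b, Gabarap, Gabarapl1, Sqstm1, Becn1, Atg5, Atg7, Ulk1 and Tfeb, taken by symbol from the 29132 genes measured by RNA-seq in isolated fat cells. All 10 were found and all 10 were among the 10343 genes tested. The adipocytes came from the perigonadal fat of 38 male C57BL/6J mice, a wild type inbred strain, and were collected as the buoyant fraction once the fat pad had been digested with collagenase. From 6 weeks of age the mice received control chow (CD) or high fat feed (HFD) for 8, 20 or 34 weeks, with 6 mice in each group except for 8 mice in the 34 week CD group. The paper states that food was withdrawn for 6 hours on the final day, so all levels are those after a short fast. Every mouse was sequenced in 3 technical replicates, which the authors merged into 1 value per gene in CPM, a read count scaled to the same total in every mouse, so the mouse is the replicate in each comparison. Time on diet and age rise together in this design and cannot be told apart.

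Autophagy is the pathway by which a cell encloses part of its cytoplasm in a growing membrane and delivers it to the lysosome for breakdown. A kinase complex around ULK1 starts the process, a lipid kinase complex that contains Beclin 1 marks the site of the membrane, and a ubiquitin-like conjugation system with ATG7 and ATG5 attaches small proteins of the ATG8 family to it. ATG8 proteins recruit cargo receptors such as p62, and TFEB switches on genes of the pathway and of the lysosome through short DNA elements. In fat tissue, autophagy is known for its part in adipocyte formation, in the removal of mitochondria and in the turnover of lipid.

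Depth was between 9275711 and 15480388 reads on genes (median 12522298), and the lowest value of a member in any mouse was 4.12 CPM. At 8 weeks every HFD mouse was sequenced more deeply than every CD mouse. Adipocyte markers were high in all groups, with 10 markers together at 16598 to 66729 CPM. In HFD mice 2, 7 and 9 of the 10 fell at 8, 20 and 34 weeks, while 1 rose at 8 and 1 at 20 weeks. Of 12 macrophage markers 11 were measured, and 7, 7 and 9 of them rose at these times (1 fell at 20 weeks); together they stood at 418 to 1686 CPM in the 8 week CD group, 3882 to 8093 CPM in the 20 week HFD group, 959 to 10108 CPM in the 34 week CD group and 4347 to 12510 CPM in the 34 week HFD group. Several other cell types moved the same way: 7, 7 and 6 of 8 markers of lipid-associated macrophages rose at 8, 20 and 34 weeks (1 fell at 20 weeks), as did 6, 5 and 6 of 6 endothelial, 3, 5 and 3 of 5 progenitor and fibroblast and 3, 2 and 3 of 4 mural markers. Mesothelial and erythroid markers followed less evenly, with 2, 0 and 0 of 3 and 1, 0 and 2 of 2 higher. The part of these other cell types in the results below was not tested, and the model with macrophage genes does not cover them. Of 4 T cell markers, Cd3e, Cd3d and Cd3g were below 1 CPM in all mice, and with Cd2 the 4 together were at 0.163 to 2.58 CPM. In such bulk samples, fewer cells of a type and less RNA per cell cannot be told apart. A further fact of all genes bears on small changes: on the scale of the deposited values the median log2 fold change of HFD against CD was 0.11 at 8, 0.14 at 20 and 0.07 at 34 weeks, so that a gene at these values sat at the middle of all genes.

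Promoters of the members show which of them carry the letters of known elements near their start, and are given here for the 3 members in which a match was found. RefSeq promoters on GRCm38.p6, from 250 bases before to 50 after a start site, were at hand for 8 of the 10 members, and both strands were searched for CACGTG (E-box), TCACGTGA (the core of the CLEAR element bound by TFEB and its relatives), GTAAACA (forkhead element) and TGACNNNGC (antioxidant response element). Atg5 and Atg7 held CACGTG and Map1lc3b held TGACNNNGC, while Ulk1, Gabarap, Gabarapl1, Sqstm1 and Tfeb held none of the 4 motifs in these windows. Over all 32851 promoters, 7.15% held CACGTG, 0.974% TCACGTGA, 3.65% GTAAACA and 12.4% TGACNNNGC, so a match by letters is common for some of them. In the sequences below the match is in capitals. The promoter of Atg5 (chr10:44268089-44268388, plus strand) has its E-box 14 bases before the start site, and that of Map1lc3b (chr8:121590188-121590487, plus strand) has its match from position 5 after it. The promoter listed for Atg7 (chr6:114670846-114671145, plus strand) lies inside the annotated gene, with the E-box 132 bases before this inner start site. The promoter of Gla (chrX:134600956-134601255, minus strand), a lysosomal gene treated with the pathway below, is set beside them since it holds the full TCACGTGA at 2 places, in which CACGTG is contained.
Atg5: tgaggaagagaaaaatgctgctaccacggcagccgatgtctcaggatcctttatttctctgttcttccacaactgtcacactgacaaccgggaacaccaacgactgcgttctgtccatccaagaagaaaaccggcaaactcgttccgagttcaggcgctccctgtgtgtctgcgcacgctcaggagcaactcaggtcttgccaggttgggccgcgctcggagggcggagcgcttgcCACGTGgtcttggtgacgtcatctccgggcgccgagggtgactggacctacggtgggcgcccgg
Atg7: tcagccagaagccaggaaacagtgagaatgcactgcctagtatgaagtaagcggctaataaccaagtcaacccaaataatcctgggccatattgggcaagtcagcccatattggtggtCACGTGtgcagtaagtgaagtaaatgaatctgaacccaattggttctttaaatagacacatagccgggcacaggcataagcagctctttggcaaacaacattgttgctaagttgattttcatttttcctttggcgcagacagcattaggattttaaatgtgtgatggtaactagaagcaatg
Map1lc3b: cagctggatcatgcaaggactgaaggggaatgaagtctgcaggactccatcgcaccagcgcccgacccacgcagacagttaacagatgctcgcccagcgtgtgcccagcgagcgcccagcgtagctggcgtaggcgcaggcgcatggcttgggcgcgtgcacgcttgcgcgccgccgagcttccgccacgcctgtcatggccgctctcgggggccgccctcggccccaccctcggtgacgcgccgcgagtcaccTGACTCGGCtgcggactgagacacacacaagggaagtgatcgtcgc
Gla: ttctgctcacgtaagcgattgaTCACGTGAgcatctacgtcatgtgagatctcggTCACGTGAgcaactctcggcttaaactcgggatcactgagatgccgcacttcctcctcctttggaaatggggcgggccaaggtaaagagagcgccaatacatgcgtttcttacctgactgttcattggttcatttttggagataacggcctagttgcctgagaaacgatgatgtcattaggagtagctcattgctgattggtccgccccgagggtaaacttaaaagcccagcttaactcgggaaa

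Per kilobase of the longest coding transcript, Sqstm1 and the ATG8 family were the highest of the 10 genes and Tfeb the lowest in most groups. In the 8 week CD group the mean levels were 419 CPM per kilobase for Sqstm1, 198 for Gabarap, 196 for Gabarapl1, 157 for Map1lc3a and 109 for Map1lc3b, followed by Atg7 (22.4), Becn1 (20.7), Ulk1 (14.6), Atg5 (8.92) and Tfeb (3.40). The ranges of the mice overlapped between Gabarap and Gabarapl1, between Gabarapl1 and Map1lc3a and between Atg7 and Becn1, and not between the other neighbours. In the 34 week HFD group the order had changed at both ends. Tfeb stood at 16.4 CPM per kilobase, above Ulk1 at 10.4 with overlapping ranges, and Sqstm1 (343) and Gabarap (303) overlapped at the top.

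**Figure D1:**
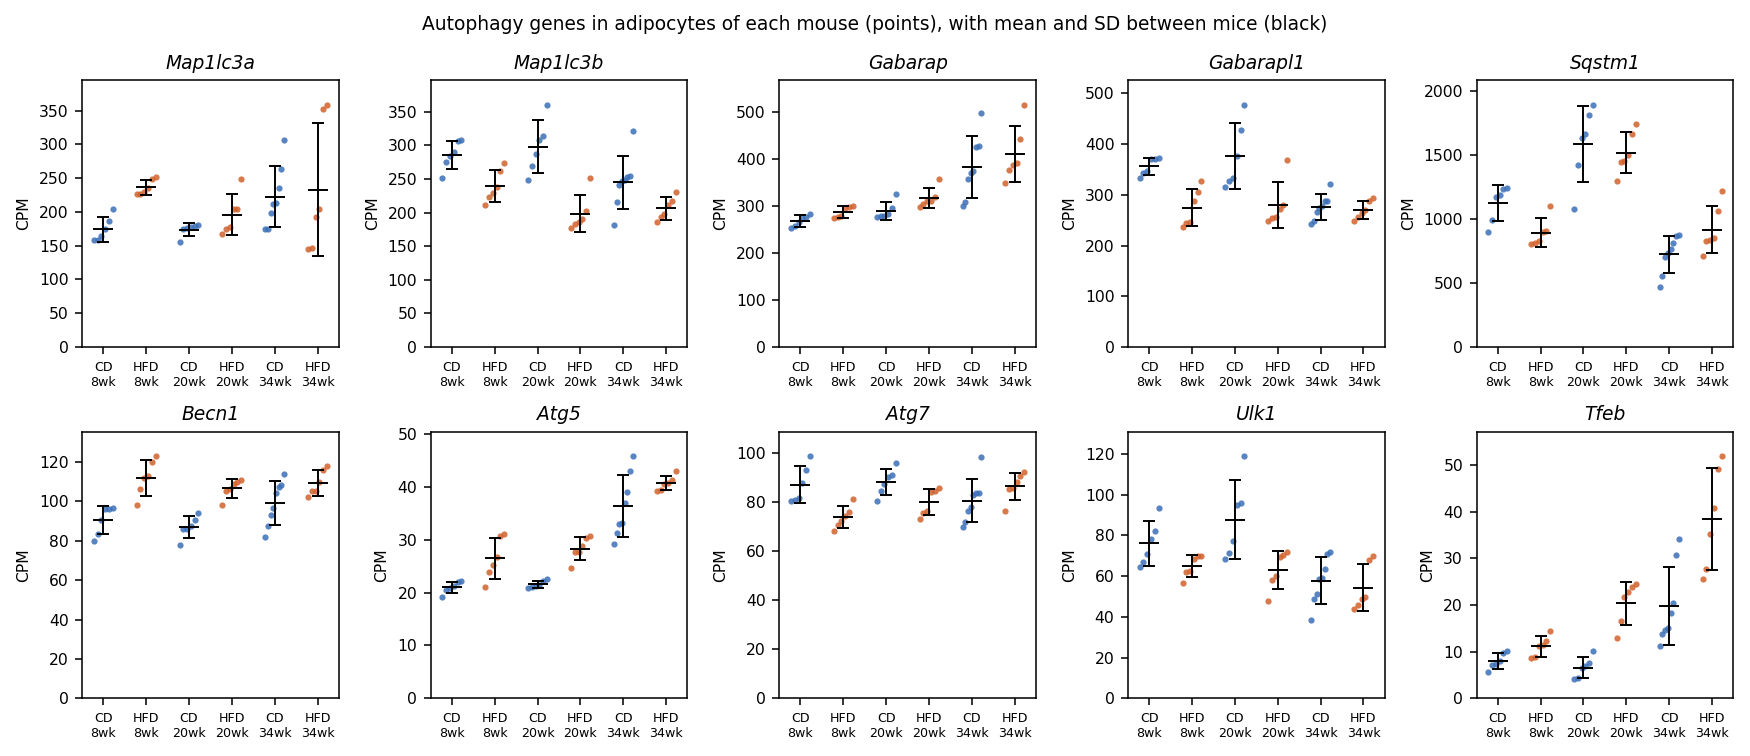
CPM of the 10 autophagy genes (y axis, from 0) in each mouse, by diet and weeks on diet (x axis). Points are mice (CD blue, HFD orange), black bars are the mean and SD of 6 to 8 mice. The HFD mice lie above all CD mice for Becn1 at 8 and 20 weeks and for Tfeb at 20 weeks, Sqstm1 is highest at 20 weeks in both diets, and Map1lc3a ranges from 145 to 359 CPM in the 34 week HFD group.

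To ask how the diet acts on the members, the diets were compared within each time by limma on log2(CPM + 1), and a gene was called a differentially expressed gene (DEG) at an adjusted p under 0.05. At 8 weeks 6 of 10 members were DEGs, 3 higher (Map1lc3a, Becn1, Atg5) and 3 lower in HFD (Map1lc3b, Gabarapl1, Atg7), where 44.9% of all genes tested were DEGs. At 20 weeks 6 were DEGs, with Becn1, Atg5 and Tfeb higher and Map1lc3b, Gabarapl1 and Ulk1 lower, against 57.0% of all genes. At 34 weeks Sqstm1 and Tfeb were higher and Map1lc3b was lower, against 43.2% of all genes. With 10 members these counts lie near the background and are no result about the group as a whole. The median log2 fold change over the members was -0.06, 0.04 and 0.10 at the 3 times, beside the medians of all genes above. Map1lc3b was the member called at all 3 times, 4 members were called at 2 times, 4 at 1 time, and Gabarap at none.

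The diets did not overlap for 3 members at 8 weeks (Map1lc3a, Becn1 and Gabarapl1), where 22.8% of all genes tested did not overlap, for 3 members at 20 weeks (Becn1, Atg5 and Tfeb), against 37.2%, and for 0 members at 34 weeks, against 2.46%.

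With another scaling of the libraries the balance of the calls shifted towards lower values. With TMM factors 1 member was higher and 4 were lower at 8 weeks and the same numbers at 20 weeks, while over all genes the split at 8 weeks went from 3083 higher and 1565 lower to 2339 and 2212, and at 20 weeks from 3957 and 1937 to 2718 and 3356. The falls of Map1lc3b and Gabarapl1 and the rise of Tfeb were called under both scalings. Where a scaling ends a call of a member, this is given with the gene.

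**Figure D2:**
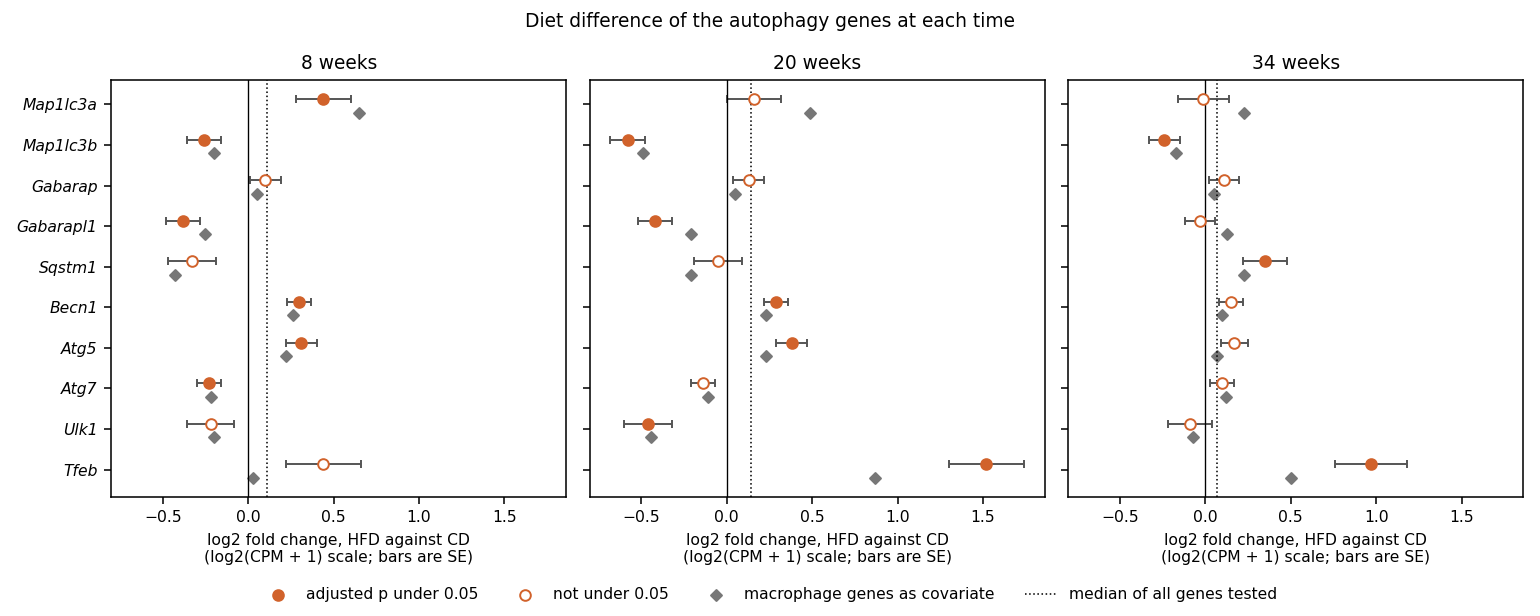
Log2 fold change of HFD against CD (x axis, log2(CPM + 1) scale) for the 10 genes (y axis) at 8, 20 and 34 weeks. Circles are the estimates with SE bars, filled at an adjusted p under 0.05; grey diamonds are the estimates with the mean of macrophage genes of each mouse in the model; the dotted line is the median of all genes tested. Tfeb at 20 weeks is farthest from 0 at 1.52, and its grey diamond lies at 0.87.

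Ulk1, the kinase that starts autophagy (Entrez 22241, chromosome 5, 110784489 to 110810120 on GRCm38), was lower in HFD at 20 weeks. At that time it ranged from 68.3 to 119 CPM (median 86.2) in CD and from 47.8 to 71.7 CPM (median 64.6) in HFD mice. The ranges overlapped, with 3 of 6 HFD mice below all CD mice. The log2 fold change was -0.46 (SE 0.14, adjusted p = 0.00640), and -0.44 with macrophage genes in the model (adjusted p = 0.0591). At 8 and 34 weeks the log2 fold changes were -0.22 and -0.09, with adjusted p of 0.211 and 0.607. In the CD mice Ulk1 went from 87.8 ± 19.2 CPM (SD) at 20 weeks to 57.8 ± 11.4 CPM at 34 weeks, so that the older CD mice reached the level of the HFD mice.

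Becn1 encodes Beclin 1, the scaffold of the lipid kinase complexes (Entrez 56208, chromosome 11, 101288258 to 101302286), and it was higher in HFD at 8 and 20 weeks by a small and even amount. At 8 weeks the CD mice lay between 80.1 and 96.7 CPM (median 93.2) and the HFD mice between 97.9 and 123 CPM (median 112). At 20 weeks the CD mice lay between 77.9 and 93.9 CPM (median 86.8) and the HFD mice between 98.0 and 111 CPM (median 107). At both times every HFD mouse was above every CD mouse. The log2 fold changes were 0.30 (SE 0.07, adjusted p = 0.00114) and 0.29 (SE 0.07, adjusted p = 0.000875). Measured from the median of all genes these were 0.20 and 0.15, and with TMM factors the estimate at 20 weeks was 0.08 and was not called (adjusted p = 0.304). By 34 weeks it was 0.15 (adjusted p = 0.0688).

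Atg5 and Atg7 belong to the same conjugation system but went in opposite directions at 8 weeks. ATG5 is part of the complex that attaches ATG8 proteins to the membrane, and ATG7 is the E1-like enzyme that activates them. Atg5 (Entrez 11793, chromosome 10, 44268322 to 44364299) ranged from 19.2 to 22.1 CPM (median 21.1) in 8 week CD and from 21.1 to 31.1 CPM (median 26.0) in 8 week HFD mice. At 20 weeks it ranged from 20.8 to 22.5 CPM (median 21.4) in CD and from 24.7 to 30.7 CPM (median 28.3) in HFD mice. All HFD mice were above the CD mice at 20 weeks and 5 of 6 at 8 weeks. For Atg5 the log2 fold changes were 0.31 (SE 0.09, adjusted p = 0.00478) and 0.38 (SE 0.09, adjusted p = 0.000446). With TMM factors they were 0.21 and 0.17 and neither was called (adjusted p = 0.0623 and 0.112).

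Atg7 (Entrez 74244, chromosome 6, 114643127 to 114860604) ranged from 80.6 to 99.0 CPM (median 84.9) in 8 week CD and from 68.4 to 81.3 CPM (median 73.4) in 8 week HFD mice. The ranges met at their edges, with 5 of 6 HFD mice below all CD mice. Its log2 fold change was -0.23 (SE 0.07, adjusted p = 0.00751). At 20 weeks it was -0.14 (adjusted p = 0.0828), and with TMM factors it was -0.36 and called (adjusted p = 0.000197). The sign was the other at 34 weeks, at 0.10 (adjusted p = 0.201). From 8 to 34 weeks the signed diet difference of Atg7 moved up by 0.34 (SE 0.10, adjusted p = 0.00856 for the interaction), where 28.8% of all genes had such a call.

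The ATG8 family forms the protein coat to which cargo binds, and its LC3 and GABARAP branches each held a member that fell with HFD. Map1lc3b encodes LC3B, the form most used as a marker of autophagosomes (Entrez 67443, chromosome 8, 121590438 to 121598760). It ranged from 252 to 308 CPM (median 288) in CD and 212 to 274 CPM (median 233) in HFD mice at 8 weeks. At 20 weeks the ranges were 249 to 361 CPM (median 298) and 177 to 252 CPM (median 188). The HFD mice lay low in both, with 4 and 5 of 6 below all CD mice. Its log2 fold changes were -0.26 (SE 0.10, adjusted p = 0.0363), -0.58 (SE 0.10, adjusted p = 1.26e-05) and -0.24 at 34 weeks (SE 0.09, adjusted p = 0.0408). The calls at 8 and 34 weeks were near the threshold. The call at 8 weeks was lost without CD mouse 2, 3, 5 or 6 or HFD mouse 1, 3, 4 or 6 of that time (adjusted p up to 0.0940), and the call at 34 weeks without CD mouse 1, 2, 3, 7 or 8 or HFD mouse 2, 3, 4 or 5 (adjusted p up to 0.109).

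Gabarapl1, the second GABARAP form (Entrez 57436, chromosome 6, 129533192 to 129542331), ranged from 333 to 372 CPM (median 359) in 8 week CD and from 237 to 327 CPM (median 267) in 8 week HFD mice. At 20 weeks it ranged from 315 to 478 CPM (median 355) in CD and from 249 to 369 CPM (median 264) in HFD mice. All HFD mice were below the CD mice at 8 weeks, and 5 of 6 at 20 weeks, where mouse 4 at 369 CPM stood apart. The log2 fold changes were -0.38 (SE 0.10, adjusted p = 0.00234) and -0.42 (SE 0.10, adjusted p = 0.000475). At 34 weeks the means were 270 CPM in HFD and 276 CPM in CD mice, and the estimate on the log2 scale was -0.03 (adjusted p = 0.814). The CD mice had come down to the HFD level by then, from 377 ± 64.9 CPM (SD) at 20 weeks to 276 ± 24.9 CPM.

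Map1lc3a encodes LC3A (Entrez 66734, chromosome 2, 155276364 to 155278073), and at 8 weeks it was higher in HFD mice, opposite to Map1lc3b. It ranged from 158 to 204 CPM (median 169) in CD and from 226 to 251 CPM (median 232) in HFD mice. All HFD mice were above all CD mice, a 1.36-fold difference. The log2 fold change was 0.44 (SE 0.16, adjusted p = 0.0259). It was 0.34 with TMM factors and not called (adjusted p = 0.104), and the call was also lost without CD mouse 6 (adjusted p = 0.0501). At 20 weeks the difference was 0.16 (adjusted p = 0.403), and its sign turned with TMM factors. The HFD mice of 34 weeks spread from 145 to 359 CPM, with mice 1 and 6 at 352 and 359 CPM and the other mice at 145 to 204 CPM. The spread of this group (SD 97.5 CPM) was the widest of the 6 groups for Map1lc3a, and its mean of 233 CPM was close to the 222 CPM of CD mice.

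Gabarap (Entrez 56486, chromosome 11, 69991370 to 69994949) did not reach the threshold for diet at any time. Its means were 268 and 287 CPM in CD and HFD mice at 8 weeks, 289 and 316 CPM at 20 weeks and 382 and 409 CPM at 34 weeks. Its log2 fold changes of 0.10, 0.13 and 0.11 (SE 0.09 each) were about those of the median gene, and with TMM factors the sign at 8 and 20 weeks was negative.

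As LC3A and LC3B, and GABARAPL1 and GABARAP, are close relatives, their balance within a mouse was compared as a ratio, which does not move with the scaling of the library. The log2 ratio of Map1lc3a to Map1lc3b was -0.72 ± 0.22 (SD) in 8 week CD mice and -0.02 ± 0.14 in 8 week HFD mice. At 20 weeks it was -0.77 ± 0.22 in CD and -0.02 ± 0.10 in HFD mice. No CD mouse reached the lowest HFD mouse at either time, with differences of 0.70 and 0.74 (exact two-sided permutation test, p = 0.00216 each, the smallest that 6 against 6 mice can give, adjusted p = 0.00433 over 6 tests). At 34 weeks the groups overlapped, with CD mice at -0.15 ± 0.23 and HFD mice at 0.08 ± 0.49, and the difference was 0.23 (exact permutation test, adjusted p = 0.318).

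The log2 ratio of Gabarapl1 to Gabarap fell with HFD at the same 2 times. It was 0.41 ± 0.09 (SD) in CD and -0.07 ± 0.25 in HFD mice at 8 weeks, and 0.36 ± 0.16 and -0.18 ± 0.27 at 20 weeks. The groups did not overlap at 8 weeks and did at 20 weeks. The differences were -0.48 and -0.55 (exact permutation tests, adjusted p = 0.00433 and 0.0130). At 34 weeks both diets were lower still, at -0.45 ± 0.28 in CD and -0.59 ± 0.18 in HFD mice, and the difference of -0.14 was not past the threshold (exact permutation test, adjusted p = 0.324). Per kilobase and over the 4 ATG8 members, Gabarap made up 30.1% ± 1.35 (SD) in CD and 31.9% ± 2.46 in HFD mice at 8 weeks, and 38.8% ± 3.86 and 41.4% ± 6.17 at 34 weeks. Gabarapl1 made up 29.7% ± 1.09 and 22.6% ± 2.22 at 8 weeks, and 21.0% ± 2.39 and 20.3% ± 2.34 at 34 weeks.

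**Figure D3:**
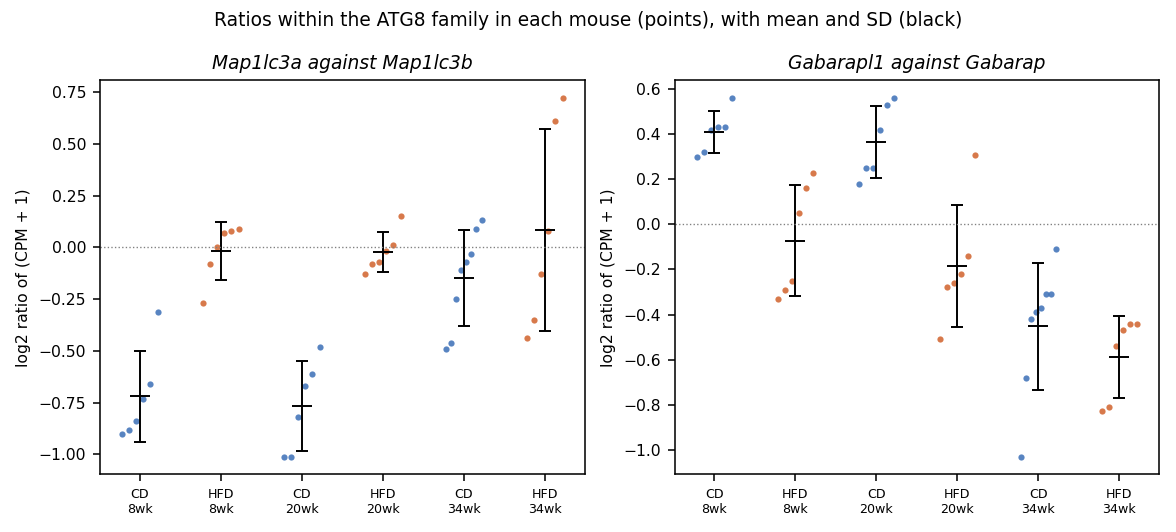
Log2 ratio of CPM + 1 of Map1lc3a to Map1lc3b (left) and of Gabarapl1 to Gabarap (right) in each mouse (y axis), by diet and weeks on diet (x axis); points are mice, black bars mean and SD. On the left the CD mice at 8 and 20 weeks lie below all HFD mice of these times, with means of -0.72 and -0.77 against -0.02 and -0.02; on the right the groups step down with time.

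Sqstm1 encodes p62, a cargo receptor that binds ubiquitinated proteins and is itself degraded by autophagy (Entrez 18412, chromosome 11, 50200152 to 50210820). Its diet difference turned with time, from -0.33 at 8 weeks (SE 0.14, adjusted p = 0.0636) to -0.05 at 20 weeks (adjusted p = 0.803) and 0.35 at 34 weeks (SE 0.13, adjusted p = 0.0370). The HFD mice ranged from 804 to 1103 CPM (median 864) at 8 weeks, where the CD mice ranged from 901 to 1243 CPM (median 1177). At 34 weeks the HFD mice ranged from 712 to 1221 CPM (median 842) and the CD mice from 471 to 876 CPM (median 749). The groups overlapped at both times, with 4 of 6 HFD mice below all CD mice at 8 weeks and 2 above all of them at 34 weeks. The difference between the 2 diet effects was 0.67 (SE 0.20, adjusted p = 0.0106). With TMM factors the fall at 8 weeks was called (-0.43, adjusted p = 0.0127) and the rise at 34 weeks was not (0.26, adjusted p = 0.111). The rise at 34 weeks was also lost without CD mouse 2, 4 or 6 or HFD mouse 2 or 3 (adjusted p up to 0.141).

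Tfeb, the transcription factor of autophagy and lysosome genes (Entrez 21425, chromosome 17, 47737037 to 47792416), showed the largest change of the 10 genes in log2 terms. It ranged from 5.63 to 10.1 CPM (median 7.63) in 8 week CD and from 8.56 to 14.5 CPM (median 11.3) in 8 week HFD mice. At 20 weeks it ranged from 4.12 to 10.1 CPM (median 6.68) in CD and from 13 to 24.4 CPM (median 22.1) in HFD mice. At 34 weeks it ranged from 11.2 to 34.2 CPM (median 16.7) in CD and from 25.6 to 51.9 CPM (median 37.9) in HFD mice. Only at 20 weeks were the diets apart in all mice, and in both diets the mice of 34 weeks were the highest. The log2 fold changes were 0.44 (SE 0.22, adjusted p = 0.107), 1.52 (SE 0.22, adjusted p = 1.24e-06) and 0.97 (SE 0.21, adjusted p = 0.000586). The diet difference grew from 8 to 20 weeks by 1.08 (SE 0.32, adjusted p = 0.0452), where 4.49% of all genes had such a call. This call sat at the threshold, and was lost in 21 of the fits that left out 1 mouse, which were those of every 8 and 20 week mouse except CD mouse 6 and HFD mouse 3 at 8 weeks and CD mouse 1 and HFD mouse 4 at 20 weeks, and that of HFD mouse 5 at 34 weeks (adjusted p up to 0.0934).

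As Tfeb and the macrophage markers were both higher in HFD mice, the members were set against the mean of 11 macrophage genes within the groups, each value taken as its deviation from the group mean. Tfeb rose with the macrophage genes over the 38 mice (Pearson r = 0.67, permutation p = 4.00e-05, adjusted p = 0.000400 over the 10 members; Spearman rho = 0.62, adjusted p = 0.00120), and r was 0.56 without the 2 mice farthest from the median of the macrophage genes. The correlation was positive in 5 of the 6 groups. Gabarapl1 (r = -0.54, adjusted p = 0.000850; rho = -0.54, adjusted p = 0.00310) and Map1lc3a (r = -0.47, adjusted p = 0.00693; rho = -0.47, adjusted p = 0.0172) went down with the macrophage genes in permutation tests, with r of -0.58 and -0.48 without those 2 mice, and in neither gene was any group positive. The other 7 members had r from -0.22 to 0.41 and adjusted p of 0.0640 or more, with Atg5 nearest to the threshold.

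With the macrophage mean of each mouse as a covariate, the diet difference of Tfeb was 0.03 at 8 weeks, 0.87 at 20 weeks (adjusted p = 0.00198) and 0.50 at 34 weeks (adjusted p = 0.0703). Becn1 was called as before at 8 and 20 weeks (0.26 and 0.23, adjusted p = 0.00871 and 0.0473), and Map1lc3b at 20 weeks (-0.49, adjusted p = 0.00296). Map1lc3a was then higher in HFD at 8 and 20 weeks (0.65 and 0.49, adjusted p = 0.00194 and 0.0370). Atg5 was called at neither 8 nor 20 weeks (0.22 and 0.23, adjusted p = 0.0537 and 0.0774), and Map1lc3b not at 8 or 34 weeks (-0.20 and -0.17, adjusted p = 0.148 and 0.324). Sqstm1 was called at 8 weeks (-0.43, adjusted p = 0.0269) and not at 34 weeks (0.23, adjusted p = 0.362), where 0 members were called. Gabarapl1 was called at 8 weeks (-0.25, adjusted p = 0.0396) and not at 20 weeks (-0.21, adjusted p = 0.137). The share of all genes called with this covariate is not given here, so a lost call is no result about these members. How much of each difference comes from RNA of other cells was not tested.

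**Figure D4:**
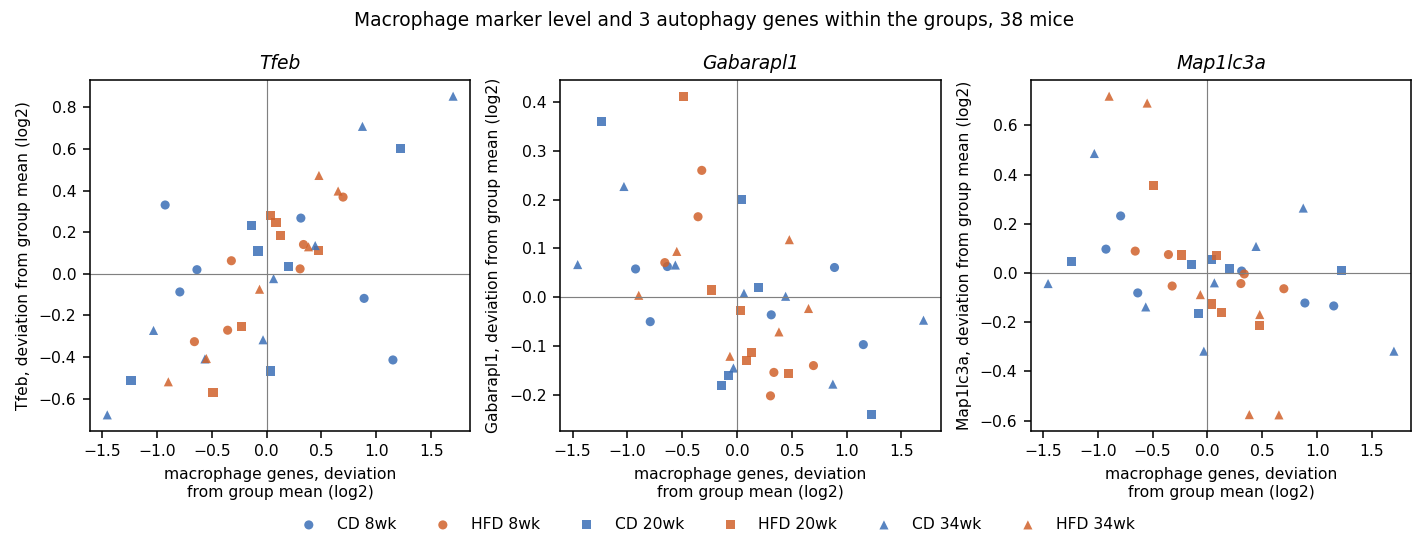
Deviation from the group mean in each of the 38 mice of the mean log2(CPM + 1) of 11 macrophage genes (x axis) and of log2(CPM + 1) of Tfeb, Gabarapl1 and Map1lc3a (y axes). Colour is the diet and symbol the time; Tfeb rises with the macrophage genes (r = 0.67), whereas Gabarapl1 (r = -0.54) and Map1lc3a (r = -0.47) go down.

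The changes with time were next examined in each diet, with the same fit. In CD mice 0 members were DEGs between 8 and 20 weeks, where 3.58% of all genes were called, and 1 member, Sqstm1, had an unadjusted p under 0.05 (0.48, unadjusted p = 0.00188, adjusted p = 0.0514). Both edgeR and DESeq2 on the reads called this 1 member (0.53 and 0.54, adjusted p = 0.0252 and 0.00683). Between 20 and 34 weeks 8 of 10 members changed in CD mice, with 62.5% of all genes called, and between 8 and 34 weeks 7 changed, with 64.7% of all genes called. In HFD mice 3 members changed between 8 and 20 weeks (36.5% of all genes), 4 between 20 and 34 weeks (30.2%) and 4 between 8 and 34 weeks (52.5%). In CD mice more members were called between 20 and 34 weeks than between 8 and 20 weeks, as for all genes.

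Sqstm1 had its highest level at 20 weeks in both diets. In CD mice it was at 1120 ± 141 CPM (SD) at 8, 1583 ± 295 CPM at 20 and 724 ± 144 CPM at 34 weeks. In HFD mice it was at 893 ± 112, 1515 ± 160 and 917 ± 187 CPM at the same times. Every 20 week mouse lay above every 34 week mouse of its diet, and in HFD mice also above every 8 week mouse. The share of all genes without overlap between times was not counted. From 20 to 34 weeks it fell by 1.13 on the log2 scale in CD (SE 0.13, adjusted p = 2.49e-08) and by 0.74 in HFD mice (SE 0.14, adjusted p = 0.000410), and in HFD mice it rose by 0.77 from 8 to 20 weeks (SE 0.14, adjusted p = 0.000237). The 34 week CD mice were below their 8 week level (-0.65, adjusted p = 0.000109) and the HFD mice were at it (0.02, adjusted p = 0.901).

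Atg5, Gabarap and Tfeb rose up to 34 weeks in both diets. Atg5 went from 21.0 ± 1.09 CPM (SD) in 8 week CD to 36.4 ± 5.86 CPM in 34 week CD mice, and from 26.4 ± 3.89 to 40.6 ± 1.39 CPM in HFD mice. All 34 week mice of each diet were above all 8 week mice of that diet. How many of all genes separate these times in this way was not counted, while 64.7% in CD and 52.5% in HFD mice were called. The log2 fold changes of Atg5 were 0.75 (SE 0.08, adjusted p = 6.69e-09) and 0.61 (SE 0.09, adjusted p = 2.06e-06). For Gabarap they were 0.49 in CD (SE 0.09, adjusted p = 9.99e-06) and 0.50 in HFD mice (SE 0.09, adjusted p = 4.18e-05), again without overlap. For Tfeb they were 1.14 in CD (SE 0.21, adjusted p = 2.23e-05) and 1.67 in HFD mice (SE 0.22, adjusted p = 9.63e-07), the latter from 11.1 ± 2.19 to 38.4 ± 10.9 CPM (SD). In both diets all 34 week mice had more Tfeb than any 8 week mouse. The mean log2 level of the macrophage markers also went from 5.46 to 7.09 in CD and from 6.63 to 8.41 in HFD mice over this interval. With macrophage genes in the model the changes of Tfeb were 0.57 in CD (adjusted p = 0.0133) and 1.04 in HFD mice (adjusted p = 0.000828), and that from 8 to 20 weeks in HFD mice went from 0.80 (adjusted p = 0.00614) to 0.25 and was not called (adjusted p = 0.521).

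Ulk1, Gabarapl1 and Map1lc3b fell between 20 and 34 weeks in CD mice, the diet in which they had been higher. The log2 fold changes were -0.59 for Ulk1 (SE 0.13, adjusted p = 0.000289), -0.43 for Gabarapl1 (SE 0.09, adjusted p = 0.000145) and -0.29 for Map1lc3b (SE 0.09, adjusted p = 0.00952). In HFD mice the same steps were -0.22, -0.04 and 0.06, and none was called (adjusted p = 0.249, 0.783 and 0.684). Whether the step differed between the diets was tested as the change of the diet difference from 20 to 34 weeks. For this 0 members were called by limma, where 10.5% of all genes were, and 3 members had an unadjusted p under 0.05. Of the 3 genes above, Gabarapl1 (0.39, unadjusted p = 0.00603, adjusted p = 0.0539) and Map1lc3b (0.35, unadjusted p = 0.0177, adjusted p = 0.10) came nearest. With TMM factors, size factors, edgeR or DESeq2 these 2 genes and Atg7 were called, with differences of 0.41 to 0.52 for the 2 genes. From 8 to 34 weeks the diet difference of Gabarapl1 moved up by 0.35 (SE 0.13, adjusted p = 0.0454), and this call was lost in the same 4 fits (adjusted p = 0.0675 to 0.0883), with no filter (adjusted p = 0.0703) and in 17 of the fits that left out 1 mouse (adjusted p up to 0.0878).

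Becn1 and Atg7 varied little. Over the 6 groups the means of Becn1 lay between 87.0 and 112 CPM and those of Atg7 between 73.9 and 88.5 CPM. Becn1 rose from 20 to 34 weeks in CD mice by 0.18 (SE 0.07, adjusted p = 0.0204), which was 0.01 above the median of all genes and 0.02 with TMM factors (adjusted p = 0.756). Without CD mouse 3 of either time this call was lost (adjusted p up to 0.0666). Atg7 rose from 8 to 34 weeks in HFD mice by 0.22 (SE 0.07, adjusted p = 0.00797), and by 0.11 with TMM factors (adjusted p = 0.228).

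The other genes of the pathway give the setting of these members. Lists by role held 96 further genes, of which 92 were tested. At 8 weeks 27 of them were higher and 12 lower in HFD mice, at 20 weeks 45 were higher and 10 lower, and at 34 weeks 29 were higher and 8 lower, with median log2 fold changes of 0.10, 0.23 and 0.13. As shares these are 42.4%, 59.8% and 40.2%, near those of all genes. With TMM factors 16 were higher and 19 lower at 8 weeks, 21 and 28 at 20 weeks, and 21 and 11 at 34 weeks, so that the excess of higher genes at the first 2 times depends on the scaling.

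Lysosomal genes of the CLEAR network, known targets of TFEB, are read here against the 29.8%, 38.3% and 27.5% of all genes that rose at the 3 times. Of 15 such genes 8 rose at 8 weeks (53.3%), 14 at 20 weeks (93.3%) and 13 at 34 weeks (86.7%), none fell, and the medians were 0.34, 0.93 and 0.59. With TMM factors 4, 11 and 12 rose, and 1 fell at 8 and at 20 weeks. Gla, which encodes alpha-galactosidase A, went from 21.2 ± 8.63 CPM (SD) in CD to 82.1 ± 21.7 CPM in HFD mice at 20 weeks, by 1.95 in log2 units (SE 0.39, adjusted p = 7.25e-05). With macrophage genes in the model 1 of the 15 rose and 1 fell at 8 weeks, 8 rose and 1 fell at 20 weeks and 3 rose at 34 weeks. The difference of Gla at 20 weeks was then 0.42 (adjusted p = 0.115). All shares of all genes in this paragraph come from the fit on the deposited scale without macrophage genes. No such share is given here for the model with them, so lost calls are not read as particular to these genes. RefSeq promoters were at hand for 10 of the 15 genes, and 5 of them held TCACGTGA, among them Gla, Ctsa, Ctsd and Mcoln1. The CLEAR network is named after this element, so its presence in these genes is no result of these data. None of the 8 members with a promoter held these letters, while Atg3 and Nrbf2 of the other lists did.

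The relatives of Tfeb changed mainly at the later times. The 4 MiT/TFE factors bind the same element, and 3 of 4 rose at 20 weeks and 4 of 4 at 34 weeks (3 of 4 with TMM factors), Tfeb included. Among all genes 38.3% and 27.5% rose at these times. The call of Tfec at 34 weeks held in only 1 of 10 alternatives. Tfec went from 2.90 ± 2.62 to 21.8 ± 6.95 CPM (SD) at 20 weeks (log2 fold change 2.72, SE 0.38, adjusted p = 7.11e-07). Its mean log2(CPM + 1) over all mice was 2.27, near the filter of 2.0, and the mice in which it was high counted towards that mean. The CD level was low, so the size of this change and the place of Tfec in the counts above are to be read with care. This factor is known from cells of the macrophage and osteoclast line, and its difference was 1.26 with macrophage genes in the model (adjusted p = 0.000177). Tfe3 fell at 8 weeks from 79.6 ± 5.44 to 63.3 ± 5.87 CPM (-0.33, SE 0.12, adjusted p = 0.0253) and rose at 34 weeks (0.55, SE 0.11, adjusted p = 0.000359). The fall at 8 weeks was lost without CD mouse 6 or HFD mouse 4 (adjusted p up to 0.0696), and with macrophage genes in the model the 2 values were -0.52 and 0.32, both called. With macrophage genes in the model 3 of the 4 rose at 20 weeks and 2 of the 4 at 34 weeks, and the sign of Tfec at 34 weeks turned, from 0.88 to -0.17 (adjusted p = 0.636). The shares of all genes in this paragraph come from the fit on the deposited scale without macrophage genes. None is given here for the other fits, so their counts are no result about the 4 factors.

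Around Ulk1 and Becn1 the partners moved both ways. Ulk2, the paralog of Ulk1, rose at 8 weeks from 106 ± 12.2 to 141 ± 6.61 CPM (SD; log2 fold change 0.42, SE 0.10, adjusted p = 0.000922) and at 20 weeks (0.38), where Ulk1 fell. The call of Ulk2 at 20 weeks was lost with TMM factors (0.16, adjusted p = 0.102) and with edgeR (0.19, adjusted p = 0.0631). Of the 7 genes of the Beclin 1 complexes, Becn1 included, 2 rose and 2 fell at 8 weeks, 4 rose and 1 fell at 20 weeks (2 and 2 with TMM factors) and 2 rose at 34 weeks. As shares called these are 57.1%, 71.4% and 28.6%, beside 44.9%, 57.0% and 43.2% of all genes. For 7 genes such counts are no result about the list as a whole. Uvrag, which joins Beclin 1 in the complex of the late pathway, rose most in its list, from 34.8 ± 4.38 to 63.0 ± 4.88 CPM at 20 weeks (0.84, SE 0.12, adjusted p = 7.84e-07), and by 0.47 with macrophage genes in the model (adjusted p = 0.00107). Nrbf2, a regulator of the early complex, fell at 8 weeks from 40.5 ± 4.63 to 25 ± 2.94 CPM (-0.67, SE 0.12, adjusted p = 7.68e-05). Among the membrane supply genes, Wipi1 rose at 8 weeks (0.65, SE 0.16, adjusted p = 0.00179) and Vmp1 fell at 20 weeks from 213 ± 38.5 to 120 ± 15.4 CPM (-0.81, SE 0.14, adjusted p = 1.30e-05).

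Beside Sqstm1, the cargo receptors showed changes both ways, with 2 of 12 higher and 2 lower at 8 weeks, 4 and 3 at 20 weeks and 4 and 1 at 34 weeks, Sqstm1 included. With TMM factors 2 were higher and 4 lower, 0 and 7, and 1 and 1, so that at 20 weeks no receptor was higher. On the deposited scale 29.8%, 38.3% and 27.5% of all genes rose and 15.1%, 18.7% and 15.7% fell at the 3 times. These shares do not apply to the TMM counts, since with TMM factors more of all genes fell than rose at 20 weeks, as given above. Ncoa4, the receptor for ferritin, fell most, from 226 ± 68.4 to 101 ± 15.0 CPM (SD) at 20 weeks (log2 fold change -1.11, SE 0.16, adjusted p = 1.33e-06). Wdfy3 rose most at 20 weeks (0.76, SE 0.27, adjusted p = 0.0176), and was at 0.09 with macrophage genes in the model (adjusted p = 0.840). This call was also lost with TMM factors (0.54, adjusted p = 0.0601), with edgeR (0.55, adjusted p = 0.0650) and without CD mouse 3 (adjusted p = 0.0531).

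In the other lists the changes were also mixed. Of the 9 other conjugation genes, Atg16l1, whose product holds the ATG5 complex at the membrane, fell at 20 weeks (-0.24, SE 0.08, adjusted p = 0.00725). The estimate was -0.46 with TMM factors, and with macrophage genes in the model it was not called (adjusted p = 0.0527). Atg16l2 was called higher at 34 weeks (0.50, SE 0.19, adjusted p = 0.0343), but in only 2 of 10 alternatives, and was at 0.09 with macrophage genes in the model (adjusted p = 0.785). Gabarapl2, the fifth ATG8 gene, was higher at 20 weeks by 0.21 (SE 0.08, adjusted p = 0.0196) but at -0.00 with TMM factors, and the call was lost without CD mouse 5 (adjusted p = 0.0704). Of the fusion genes, Plekhm1 fell at 8 weeks from 188 ± 32.5 to 105 ± 12 CPM (SD; -0.83, SE 0.10, adjusted p = 4.33e-07) and Vamp8 rose at 20 weeks (0.79, SE 0.18, adjusted p = 0.000378). With macrophage genes in the model Vamp8 was at 0.31 and not called (adjusted p = 0.189). Ddit4, an inhibitor of mTORC1 signalling, rose at all 3 times, most at 20 weeks (1.04, SE 0.28, adjusted p = 0.00197), and was called at none of them with macrophage genes in the model (adjusted p = 0.0657, 0.0714 and 0.102). Prkaa2, a catalytic subunit of AMPK, was lower at 34 weeks (-0.42, SE 0.15, adjusted p = 0.0205), a call lost with macrophage genes in the model (-0.18, adjusted p = 0.474), with each time fitted separately (adjusted p = 0.126) and without CD mouse 4 or HFD mouse 3 or 4 (adjusted p up to 0.103). Zkscan3, known as a repressor of autophagy genes, fell most at 8 weeks (-0.76, SE 0.15, adjusted p = 0.000244) and also at 20 weeks (-0.70, SE 0.15, adjusted p = 0.000263). Nfe2l2, which encodes NRF2, was higher at 34 weeks (0.53, SE 0.17, adjusted p = 0.0135), a call lost with macrophage genes in the model (0.21, adjusted p = 0.460), with each time fitted separately (adjusted p = 0.132) and without HFD mouse 3 (adjusted p = 0.0723).

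**Figure D5:**
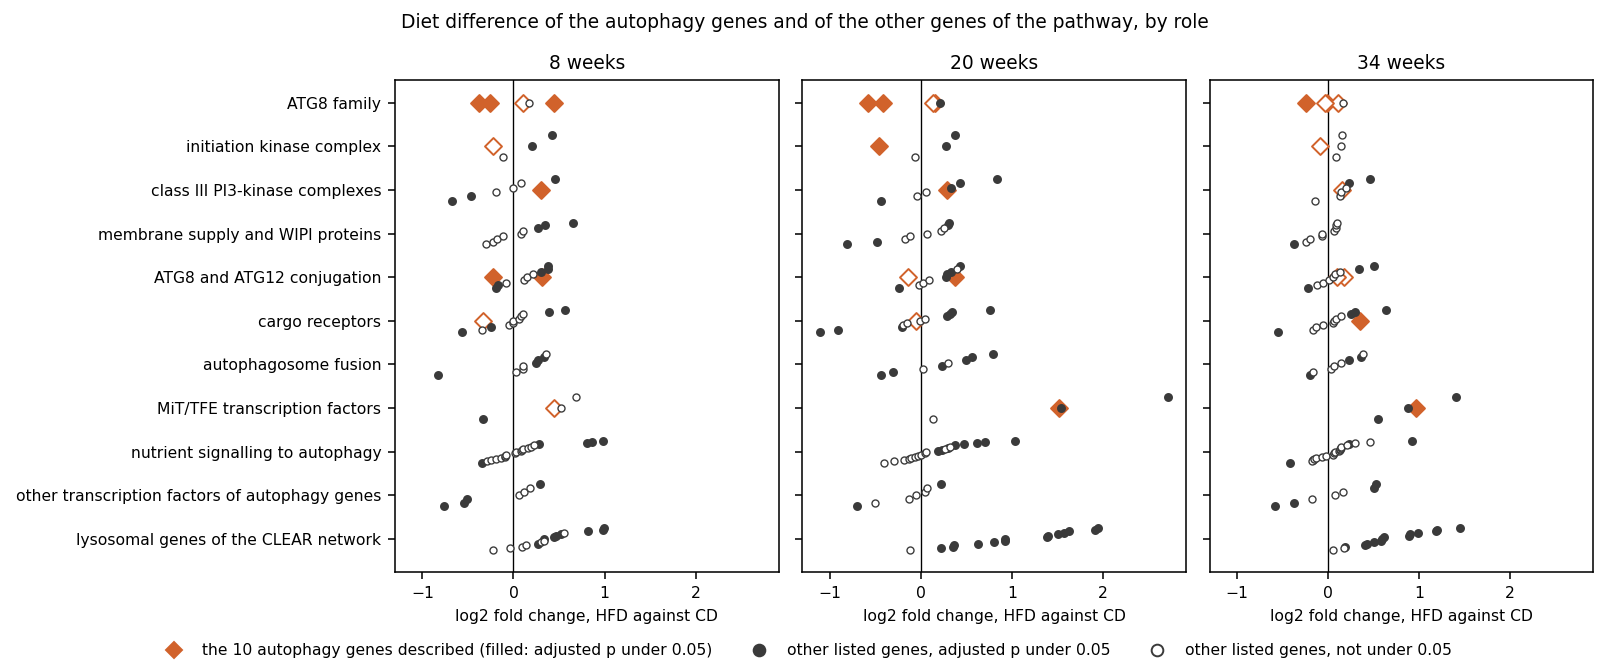
Log2 fold change of HFD against CD (x axis) at 8, 20 and 34 weeks for the 10 members (orange diamonds) and 92 other autophagy genes (circles), by role (y axis); filled symbols have an adjusted p under 0.05. At 20 weeks 14 of 15 lysosomal genes of the CLEAR network are filled and to the right of 0, with a median of 0.93 over the 15, while the ATG8 family spreads to both sides.

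The genes whose pattern over all 38 mice was most like that of each member are given as a description, by the Pearson r of log2(CPM + 1), and share diet, time and library with it. Gabarap was most like Eif3k, Fau and Rps23 (r = 0.97 each), which belong to translation and the ribosome. Tfeb was most like Tpra1, Scamp5 and Mkrn1 (r = 0.97 each), Sqstm1 like Txnrd1 and Adamts4 (0.93) and Nfkb2 (0.92), and Atg5 like Bub3 and Lamtor1 (0.95). Becn1 was nearest to Syp (0.91), Gabarapl1 to Fmo5 (0.91), Map1lc3a to Iscu (0.89), Map1lc3b to Pcsk5 (0.89) and Ulk1 to Abcc10 (0.88). Atg7 had no close companion, with Osbp2 nearest at 0.70. Among the members themselves and within the groups, Map1lc3b and Gabarapl1 (r = 0.59), Gabarap and Atg5 (0.58) and Sqstm1 and Ulk1 (0.58) went together most, and Gabarapl1 and Tfeb (-0.53) went apart most.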

How the data were processed

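RNA-seq was performed by the authors on polyA RNA of isolated perigonadal adipocytes. Per the labels and the methods, reads were aligned to mm10 with STAR (2.5 or 2.5.2b), counted with featureCounts (Subread 1.5.1) on GENCODE vM2 exons, and normalized with edgeR. The deposited CPM values, made by the authors with 3 technical replicates merged per mouse, sum to 1000000 in every mouse (a TMM factor cannot be seen from them), and all 1107016 values are whole multiples of 1 read within 0.1 read. These reads entered edgeR 4.0.16 and DESeq2 1.42.0 as alternatives. The planned design assumed TMM-scaled CPM, and TMM factors were therefore applied as an alternative.

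On the log2(CPM + 1) scale, which understates changes of low genes, 10343 genes averaged over 2.0 and were fitted with limma 3.58.1 (R 4.3.3) with the mean-variance trend, all 6 groups together (32 residual degrees of freedom). Two-sided p-values were adjusted after Benjamini and Hochberg across these genes. Ratios were compared by exact permutation tests, and correlations by 100000 permutations within groups. The fit was tested on simulated data. Levels between genes are CPM per kilobase of the longest protein-coding transcript (GENCODE vM21). Promoters and positions are from RefSeq (GRCm38.p6).

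The 10 genes, the role lists, the marker lists and the alternatives were chosen with earlier results of these data known. Named are all 10 genes and, per list, the other gene with the largest called rise and the largest called fall at any time. Atg3 and the lysosomal genes named for their promoters alone were chosen after the matches were seen. Atg101, Rubcn and Retreg1 were not matched in the table, and Rragd was below the filter. Mouse numbers were not used to pair the diets in the main fit. Same-numbered mice correlated between -0.51 and 0.53 in their deviations, with 8 of 18 over 0.1. Mice of different numbers were not compared, so these values cannot decide whether the numbers pair the diets. Alternatives were other pseudocounts, filters, scalings, tools, weights, covariates and each mouse left out. No molecular identifiers are named in the sources used here, and depth speaks to counting error only. Protein sequences were not used here.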

Additional observations from a re-analysis of the deposited data

Results flagged for a closer look

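The mice of each group were compared for each of the 10 genes, which gave 60 sets of 6 or 8 values, and in 5 sets the highest or lowest mouse lay far from the others by Dixon's test at the 95% level, where chance alone flags about 1 in 20 sets. These were Map1lc3a in mouse 5 of the 20 week CD group (155 CPM, the lowest), Map1lc3b in mouse 4 of the 20 week HFD group (252 CPM, the highest), Gabarap in mouse 5 of that group (356 CPM, the highest), Gabarapl1 in mouse 4 of that group (369 CPM, the highest) and Sqstm1 in mouse 5 of the 8 week HFD group (1103 CPM, the highest). Mouse 4 of the 20 week HFD group was thus the highest of its group for Map1lc3b and Gabarapl1.

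The diet difference itself changed with time in 4 of 30 tests of the 10 genes. Its signed value moved up for Tfeb by 1.08 from 8 to 20 weeks (limma, adjusted p = 0.0452), and from 8 to 34 weeks by 0.34 for Atg7 (adjusted p = 0.00856), 0.35 for Gabarapl1 (adjusted p = 0.0454) and 0.67 for Sqstm1 (adjusted p = 0.0106). For Gabarapl1 this was a difference of -0.38 at 8 weeks that was -0.03 at 34 weeks, and for Atg7 and Sqstm1 the estimate went from negative to positive.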

How the results depend on the processing

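The counts of members called (6, 6 and 3 for diet at 8, 20 and 34 weeks) depended most on 34 weeks and on the contrasts with few calls. At 34 weeks the count was 1 with no filter, 1 with each time fitted separately and 0 with the macrophage covariate. In CD mice from 8 to 20 weeks it was 1 in place of 0 with a pseudocount of 0.1, TMM factors, size factors, array weights, the macrophage covariate, edgeR and DESeq2. In HFD mice from 8 to 20 weeks it was 6 with array weights and 1 with the macrophage covariate. For the change of the diet difference it was 0 with no filter and 3 with array weights from 8 to 20 weeks, 3 with TMM factors, size factors, array weights, edgeR and DESeq2 from 20 to 34 weeks, and 5 with array weights from 8 to 34 weeks. Of the 92 other autophagy genes, 25, 34 and 7 were called with the macrophage covariate and 14 at 34 weeks with each time fitted separately. These counts are not set beside the share of all genes called in the same fits. The sign turned for Gabarapl2 at 20 weeks with TMM factors (-0.00, adjusted p = 0.985), and with the macrophage covariate for Tfec at 34 weeks (-0.17, adjusted p = 0.636) and Gla at 8 weeks (-0.00, adjusted p = 0.993). The cause was not tested.

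With each mouse left out in turn, members called for diet numbered 4 to 7 at 8 weeks, 6 to 6 at 20 weeks and 1 (without HFD mouse 2) to 4 at 34 weeks. Over time they numbered 0 to 1, 7 to 9 and 6 to 8 in CD and 2 to 3, 4 to 4 and 4 to 5 in HFD mice (20 against 8, 34 against 20 and 34 against 8 weeks), and 0 to 1, 0 to 2 and 2 to 4 for the diet difference. The other autophagy genes called numbered 25 (without HFD mouse 3) to 40, 51 to 58 and 25 (without HFD mouse 3) to 44. These counts, like those of the members, are not set beside the share of all genes called in the same fits. A lower count is therefore no result about the autophagy genes. The ratio differences were 0.67 to 0.78, 0.70 to 0.80 and 0.10 to 0.33 for Map1lc3a to Map1lc3b, and -0.54 to -0.43, -0.65 to -0.48 and -0.22 to -0.09 for Gabarapl1 to Gabarap.

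The labels do not say whether the mouse numbers link the groups. With the number as a replicate block 0 members had a changed diet difference from 8 to 20 weeks and 1 from 20 to 34 weeks. That of Gabarapl1 from 8 to 34 weeks was then not called (0.33, adjusted p = 0.0753). The share of all genes called with this block is not given here, so these changes are not read as particular to the members.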
